A study of Tupaia belangeri chinensis with 36 samples.

Results

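In the tree shrew epididymis, 102 of the 59590 entries of a piRNA table (0.171%) had counts while all 5 measured testis libraries had none. They are called epididymis-only entries here. They were selected on measured counts: 0 in every measured testis library and a sum of at least 5 over the 11 measured epididymal libraries. Testis zeros and epididymal counts are therefore no finding about them. The segments, the seasons and the place in the catalogue are described as results, but the rule was not free of season. Testis libraries of the reproductive season gave 15121220 piRNA counts and those of the non-reproductive season 408398, so the zeros were asked at unequal depth. In the epididymis, 2 cauda libraries of the non-reproductive season gave 81.1% of the counts of these entries. How far the choice itself set the seasonal pattern was not tested. The main pattern was seasonal: libraries of the non-reproductive season held 94.9% of the counts of these entries, against 43.1% of all epididymal piRNA counts.

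PIWI-interacting RNAs (piRNAs) are small RNAs bound by PIWI proteins, and they are best known from the germ line, where they silence transposons and cut other transcripts. The testis makes most of the piRNAs of a male mammal, and sperm carry a part of them. The epididymis is the duct in which sperm mature: the caput, its head, receives sperm from the testis, and the cauda, its tail, stores them. Small RNAs of that size in epididymal tissue can come from sperm in the lumen or from the cells of the duct.

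Tissue came from male Tupaia belangeri chinensis, aged 1.5 to 2 years, and 4 groups are compared: caput in the non-reproductive season (CAPUT-NR), caput in the reproductive season (CAPUT-R), and cauda in both (CAUDA-NR, CAUDA-R). Testis of both seasons (TESTIS-NR, TESTIS-R) enters through the selection and through 1 joint model. The non-reproductive (NR) animals were taken in December 2023 and the reproductive (R) ones in April 2024, so season and date of collection cannot be told apart. The labels name no treatment, each group had 3 biological replicates, and whether the tissues came from the same animals is not given in the sources used here. These are whole pieces of tissue, so fewer cells of a type and less RNA per cell cannot be told apart, and whether sperm were flushed out is not given either.

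Of the 18 columns of the table, 2 (TESTIS-NR 3 and CAPUT-NR 3) equalled the mean of the other 2 of their group, rounded up to a whole number, at 100% of entries and were left out, so CAPUT-NR has n = 2. Total piRNA counts ran from 9367 (CAPUT-R 2) to 195386 (CAPUT-R 3) in the epididymis and from 148505 to 6440714 in the testis. A single count was therefore worth 5.12 to 107 CPM, where CPM, the unit of all levels here, is the count per 1000000 piRNA counts of the library. CAUDA-NR 3 stood apart from CAUDA-NR 1 and 2: it had counts in 11199 entries, against 626 and 1916, and 83.9% of its counts lay in the 49858 entries with counts in every TESTIS-R library, against 55.8% and 63.0%. That share was 93.9% to 95.7% in CAUDA-R, 85.4% to 97.7% in CAPUT-R and 66.2% and 70.1% in CAPUT-NR. The labels were also checked against miRNAs that mark cell types. The 10 measured epithelial miRNAs of the miR-200 and miR-141 families summed to 62715 to 121066 counts per 1000000 miRNA counts in the epididymal libraries and to 211 to 3559 in the testis.

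The label of these entries holds only to the depth of the testis libraries. Together those libraries gave 15529618 piRNA counts, so a sum of 0 allows a mean testis level of up to 0.193 CPM (3 counts). TESTIS-R gave 15121220 of these counts and TESTIS-NR 408398, which allows up to 7.35 CPM in the non-reproductive testis. Just outside the rule stood 54 entries with a single testis count, 96.2% of whose epididymal counts were from NR, and 51 entries with 2. Among those with 1 testis count, pir-tup-9525 had 266 epididymal counts, pir-tup-38899 had 260 and pir-tup-9883 had 237, more than most entries inside. Just inside at the other end, 9 entries had exactly 20 epididymal counts, among them pir-tup-168, pir-tup-384 and pir-tup-1017. Every entry of the table had at least 20 counts over the 16 measured libraries, so the limit of 5 removed none.

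The epididymis-only entries were of low abundance one by one. Their epididymal sums ran from 20 to 380 counts with a median of 43, and 11 of the 102 reached 100 counts. An entry had counts in a median of 4 of the 11 libraries, with 9 entries in 8 or more, 29 in 3 or fewer and 0 in all 11. For 61 entries a single library held at least 50% of the counts. CAUDA-NR 1 and 2 together gave 81.1% of all their counts.

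As a group they took a larger share of the piRNA counts in NR than in R in both segments, with no overlap between the seasons of a segment. In the cauda the share was 2.35%, 1.97% and 0.596% in CAUDA-NR 1 to 3, and 0.0704%, 0.153% and 0.115% in CAUDA-R 1 to 3. The means were 1.64% ± 0.923 (SD, n = 3) and 0.113% ± 0.0415 (SD, n = 3), a ratio of 14.5. CAUDA-NR 3 was the lowest of its group, at 5.28 times the CAUDA-R mean, and without it the ratio was 19.1. In the caput the share was 1.17% and 1.79% in CAPUT-NR 1 and 2, and 0.0896%, 0.555% and 0.0225% in CAPUT-R 1 to 3. The means were 1.48% ± 0.441 (SD, n = 2) and 0.222% ± 0.290 (SD, n = 3), a ratio of 6.64. CAPUT-R 2, the shallowest library, was the highest of the 6 R libraries, and leaving it out took the CAPUT-R mean to 0.0561% and the ratio to 26.3. No test is given for these sums, since the entries were chosen on the same counts and the rule's zeros in the deep TESTIS-R libraries leave out any entry also seen there.

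**Figure D1:**
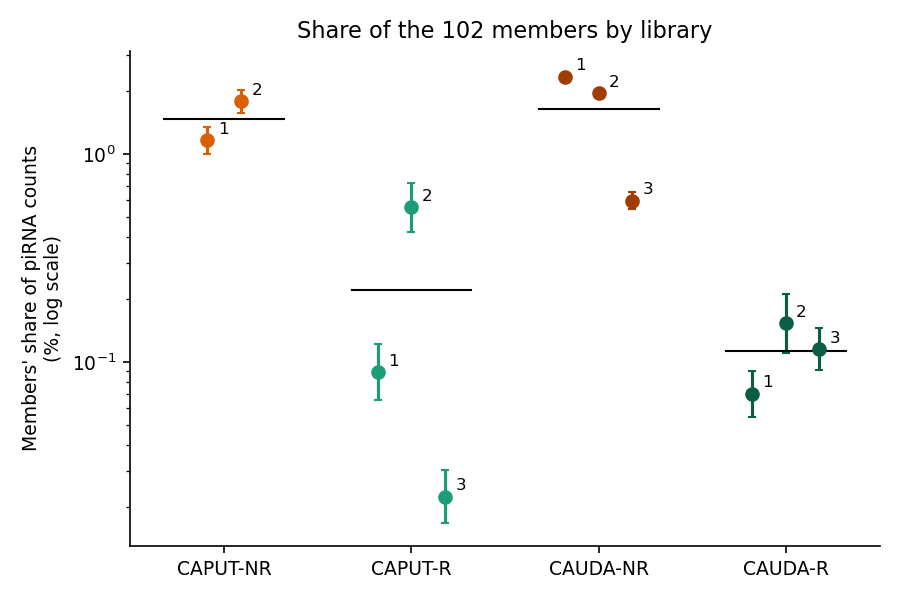
Share of the piRNA counts of each library taken by the 102 epididymis-only entries, in percent on a log axis, by group; points are libraries with their replicate number, bars their 95% Wilson intervals (counting error only) and lines the group means. The NR libraries sit between 0.596% and 2.35% and the R libraries between 0.0225% and 0.555%.

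In plain counts the contrast had another shape. The 6 R libraries held 36 to 68 counts of these entries each, although their piRNA totals spanned 9367 to 195386. CAPUT-NR 1 and 2 held 167 and 239, at totals of 14332 and 13360, and CAUDA-NR 1 to 3 held 2691, 2062 and 402. The R libraries were thus close to each other in counts and far apart in share, and the NR cauda libraries were above all R libraries in both.

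Relative to the miRNAs of the same libraries the NR cauda stood farther above the NR caput. CAUDA-NR 1 to 3 had 412, 161 and 60.9 counts of epididymis-only entries per 1000000 miRNA counts, and CAUDA-R 1 to 3 had 6.15, 5.10 and 8.60, a ratio of means of 32.0 that fell to 16.8 without CAUDA-NR 1. In the caput only CAPUT-NR 1 was measured in both tables, with 14.8, against 2.64 to 6.30 in CAPUT-R. As a share of piRNA counts CAUDA-NR and CAPUT-NR were alike in mean (ratio 1.11), whereas on the miRNA scale every CAUDA-NR library was above CAPUT-NR 1. The NR cauda libraries also had more piRNA counts per 1000000 miRNA counts (8206 to 17514) than CAPUT-NR 1 (1273).

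How many of the entries could be seen followed the season too. CAUDA-NR 1 to 3 had counts in 92, 91 and 77 of the 102, and CAPUT-NR in 56 and 54. The R libraries had counts in 7 to 22. Over all entries of the table the order was mostly the reverse. Counts were seen in 626, 1916 and 11199 entries in CAUDA-NR 1 to 3, in 1812 and 736 in CAPUT-NR, and in 2582 to 22782 in the R libraries. Of the 102, 53 had no count in any R library, 48 had counts in both seasons and 1, pir-tup-17388, had none in NR. By segment, 77 were counted in both, 25 in the cauda alone and 0 in the caput alone. The cauda libraries held 452855 piRNA counts in all and the caput libraries 275970. In NR the totals were 286638 in CAUDA-NR and 27692 in CAPUT-NR, so depth was most unequal where most counts of the 102 lay. The split by segment is therefore not read as a difference between segments. Shares over all entries were not counted for the numbers seen in both or 1 of the seasons or segments. Most counts of the 102 came from CAUDA-NR 1 and 2.

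**Figure D2:**
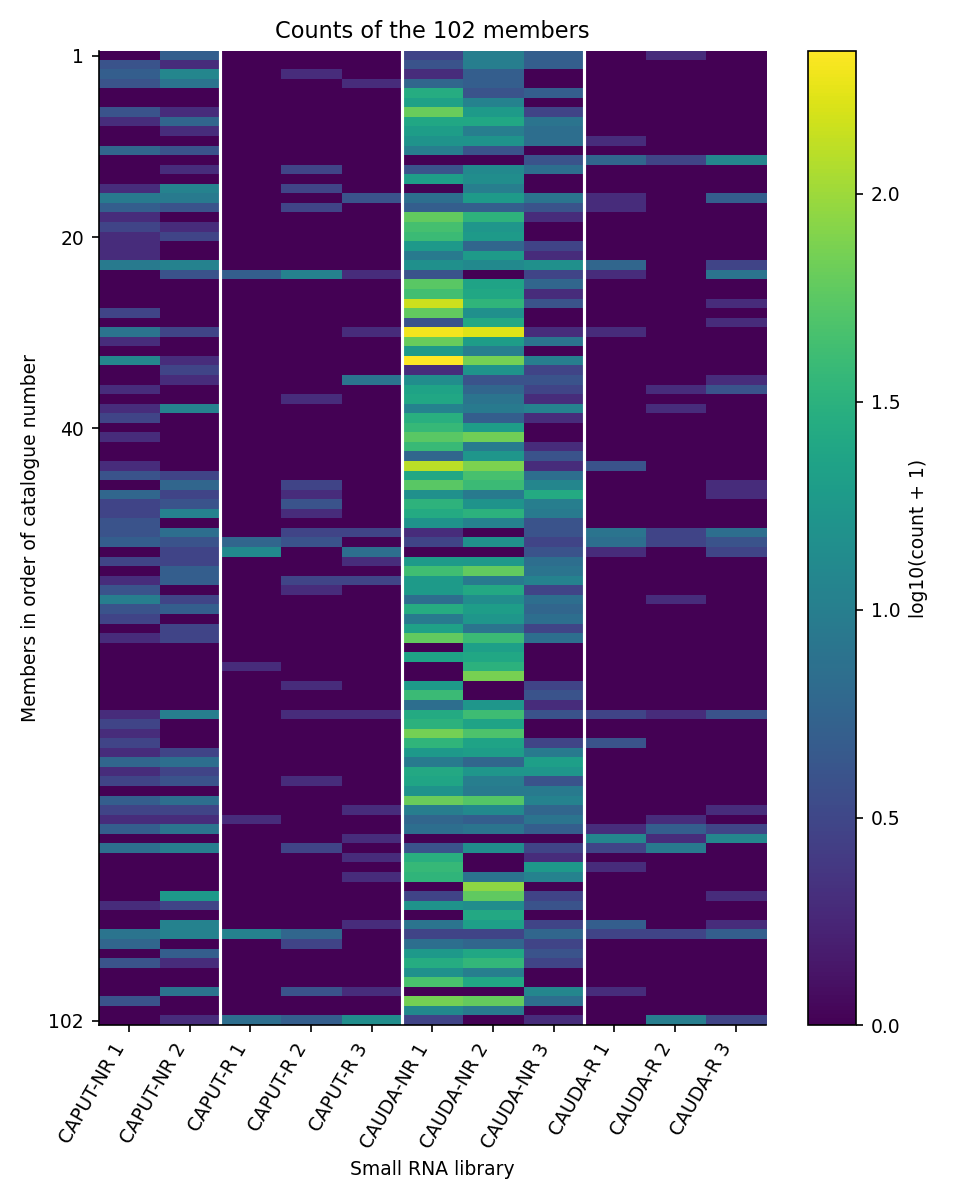
Counts of the 102 epididymis-only entries (rows, in order of catalogue number) in the 11 measured epididymal libraries (columns), coloured by log10(count + 1); white lines part the groups. CAUDA-NR 1 and 2 hold 81.1% of the counts, and most cells of the R libraries are at 0.

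Entry by entry, the NR mean was above the R mean for 97 of 102 over all epididymal libraries, and for 92 of 102 within the cauda. Within the caput 67 were higher in NR, 10 were higher in R and 25 had no caput count. The like shares over all entries were not counted, so these numbers describe the 102 alone. A stricter count asked that every NR library lie above every R library of the segment. In the cauda 55 of 102 did so, where 6.22% of the 4129 entries with at least 20 epididymal counts did; in the caput 32 did, where 5.35% of those entries did. In both segments at once 23 of 102 met it, where 3.68% of those entries did. The reverse, every R library above every NR library, held for 3 in the cauda and 0 in the caput, where it held for 31.7% and 20.6% of the 4129 entries. Without CAUDA-NR 3 the count in the cauda was 77, where 7.1% of entries met it. The 4129 are not a like for like background, because most of them have testis counts and the 102 by choice have none.

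**Figure D3:**
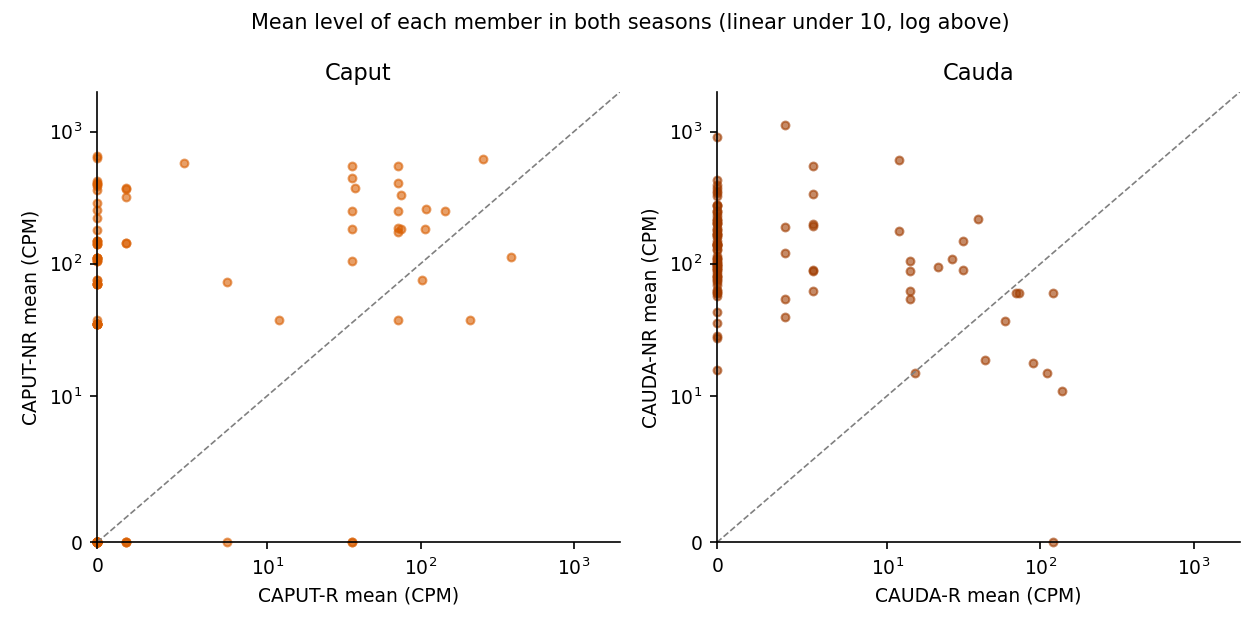
Mean level of each of the 102 entries in R (horizontal) against NR (vertical), in CPM, in caput (left) and cauda (right); axes are linear under 10 and logarithmic above, and the dashed line marks equal levels. In the cauda 92 of 102 lie above the line, and in the caput 67 do, with 25 at the origin. The like shares over all entries were not counted.

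Seasons were then tested over the whole piRNA table, R minus NR in each segment, with edgeR's quasi-likelihood test and Benjamini-Hochberg adjustment. In the cauda 890 entries passed the filter on low counts, and 5 of the 102 epididymis-only entries were among them, so this test speaks of 5 and not of 102. Of these, 4 were called lower in R and 0 higher, where 8.54% of all tested entries were called lower and 0% higher. DESeq2 called all 5 lower, where it called 10.6% of entries lower. All 5 that passed did so on their NR counts, so their direction was given by the filter and the 4 of 5 is no support for the set. The same holds for the adjusted p values of these entries given below, which are a description only.

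pir-tup-5690 had 220, 71 and 9 counts in CAUDA-NR 1 to 3 and 0 in each CAUDA-R library. Its CAUDA-NR mean was 912 ± 918 CPM (SD, n = 3), at least 50.5-fold above the limit of 3 counts over CAUDA-R, with an adjusted p of 0.00828 by edgeR's quasi-likelihood test. With scaling by the library total the adjusted p of the same edgeR test was 0.0948. The groups did not overlap, but the counts fell unevenly over the NR libraries, and without CAUDA-NR 1 the bound was 22.5-fold. The bound also rests on the depth of CAUDA-R: it was 25.0-fold without CAUDA-R 1 and 32.6-fold without CAUDA-R 3. In the caput it had 11 and 1 counts in NR and 0 in R.

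pir-tup-10384 was more even within NR. It had 63, 51 and 10 counts in CAUDA-NR and 0 in CAUDA-R, a mean of 395 ± 216 CPM (SD, n = 3) and at least 21.9-fold above the floor (10.9-fold without CAUDA-R 1, 14.1-fold without CAUDA-R 3), with an adjusted p of 0.0183 by edgeR. In CAPUT-NR it had 4 and 6 counts, a mean of 364 ± 120 CPM (SD, n = 2) close to that of the cauda, and in CAPUT-R it had 0.

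pir-tup-9966 had 25, 16 and 16 counts in CAUDA-NR and 0 in CAUDA-R, at least 11.2-fold higher in NR, with an adjusted p of 0.0471 by edgeR. The bound was 5.57-fold without CAUDA-R 1 and 7.26-fold without CAUDA-R 3. Its level in CAUDA-NR 3, 237 CPM, was the highest of the group, unlike the other called entries. pir-tup-6242 had 32, 15 and 9 counts in CAUDA-NR and 0 in CAUDA-R, at least 10.3-fold higher in NR, with an adjusted p of 0.0499 by edgeR, just inside the threshold of 0.05. Its bound was 5.09-fold without CAUDA-R 1 and 6.63-fold without CAUDA-R 3. In the caput it had 2 and 3 counts in NR and 0, 3 and 0 in R, so the caput seasons overlapped. The fifth entry that passed the filter, its near neighbour in number pir-tup-6240, had 55, 39 and 11 counts in CAUDA-NR and 0, 0 and 1 in CAUDA-R, and was not called (adjusted p 0.0508 by edgeR).

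These calls depended on single libraries. Leaving out CAUDA-NR 2 (6 tested), CAUDA-R 1 (37 tested) or CAUDA-R 3 (45 tested) left 0 of the epididymis-only entries called. Leaving out CAUDA-R 2 (45 tested) left 1, which was higher in R (pir-tup-17388). Without CAUDA-NR 1, 3 of the epididymis-only entries were tested and all 3 were called lower, where 113 of 1213 tested entries were. Leaving out CAUDA-NR 3 let 41 pass the filter and called 39 lower and 1 higher, where 13.9% of 1446 tested entries were called lower and 58.5% higher. A joint model of all 16 measured libraries, testis included, tested 77 of them and called 57 lower and 0 higher in CAUDA-R, where 6.67% of 3357 entries were called lower. Here too the filter favoured entries high in NR: 40 of the 41 and 72 of the 77 tested had more NR than R counts, and the joint model also uses the testis zeros of the rule. Nothing is read from these counts against their backgrounds. Scaling by the library total called 0 of the 5. Under the main scaling the median log2 change of all 890 entries was 1.13, and the other scalings took it to between 1.43 and 2.59.

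In the caput 220 entries passed the filter, 3.18% were called lower in R, and none of the 102 was among those tested. Scaling to miRNA totals, for which CAPUT-NR 2 has only an averaged total, turned the 7 calls of all entries, all lower, into 4 higher and 6 lower. The joint model of all 16 libraries tested 77 of the 102 in the caput and called 13 lower and 0 higher in CAPUT-R, where 2.95% of 3357 entries were called lower. These 77 are those of the joint model above, so this count is no support for the set either. pir-tup-5585 was one of the 13, with 8 and 10 counts in CAPUT-NR and 0 in CAPUT-R, at least 54.1-fold higher in NR (without CAPUT-R 3, which sets the floor, at least 11.5-fold). pir-tup-5690 and pir-tup-10384, called in the cauda, were among the 13 as well.

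The most abundant of the 102, averaged over libraries with equal weight, were mostly entries of the NR cauda. pir-tup-5678 came first, with 200, 168 and 1 counts in CAUDA-NR 1 to 3, 7 and 2 in CAPUT-NR and a single count each in CAUDA-R 1 and CAPUT-R 3. CAUDA-NR 3 and CAUDA-R 1 each had 1 count, at 14.8 and 11.9 CPM, so the cauda seasons were only just free of overlap for the leading entry. The ratio of means of 282 rests on that 1 count in CAUDA-R, and without CAUDA-R 1 it is a bound of at least 30.8-fold. pir-tup-6236 was as uneven within CAUDA-NR, with 126, 75 and 1 counts, and had 1 and 0 in CAPUT-NR and 3, 0 and 0 in CAUDA-R. Its cauda seasons overlapped, with CAUDA-R 1 at 35.8 CPM above CAUDA-NR 3 at 14.8 CPM. pir-tup-5625 was counted in the cauda alone, with 147, 33 and 3 in CAUDA-NR and 1 in CAUDA-R 3.

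Other leading entries were as high in the NR caput as in the NR cauda, or higher. pir-tup-5585 stood at 558 and 749 CPM in CAPUT-NR 1 and 2 and at 122, 114 and 208 CPM in CAUDA-NR 1 to 3, with no overlap between the segments. It was also seen in CAUDA-R, with 5, 0 and 2 counts. pir-tup-6269 had 139.5 and 749 CPM in CAPUT-NR and 227, 296 and 119 CPM in CAUDA-NR, and these overlapped. pir-tup-27573 had 17 of its 80 counts in CAPUT-NR 2 and 58 in CAUDA-NR 2, and at most 2 in any other library, so it was an entry of those libraries rather than of a group. pir-tup-9581 was among the most widely seen: it had counts in 10 of the 11 libraries, with 26, 40 and 3 in CAUDA-NR against 2, 1 and 3 in CAUDA-R.

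A few entries did not follow the season in every segment. pir-tup-38478 had 7 and 10 counts in CAPUT-NR, 10, 5 and 0 in CAPUT-R, 2, 2 and 5 in CAUDA-NR and 2, 2 and 4 in CAUDA-R. Its mean was 618 ± 184 CPM (SD, n = 2) in CAPUT-NR, 255 ± 268 (SD, n = 3) in CAPUT-R, 36.9 ± 32.3 (SD, n = 3) in CAUDA-NR and 59.0 ± 31.6 (SD, n = 3) in CAUDA-R, so its NR segments did not overlap and its seasons overlapped in both segments. pir-tup-22701 was also high in the NR caput, with 6 and 9 counts, against 0, 2 and 0 in CAPUT-R. In CPM these were 419 and 674 against 0, 214 and 0, with no overlap. In the cauda its seasons overlapped, and 8 of its 10 CAUDA-R counts came from CAUDA-R 2.

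5 entries had a higher mean in R: pir-tup-2886, pir-tup-5586, pir-tup-7311, pir-tup-17388 and pir-tup-59385, all of them listed because their number is small. pir-tup-17388 had 11, 1 and 11 counts in CAUDA-R, 1 in CAPUT-R 3 and 0 in all 5 NR libraries. Its CAUDA-R level of 131, 42.6 and 187 CPM was thus free of overlap with CAUDA-NR, and the joint model gave an adjusted p of 0.0761 by edgeR. pir-tup-2886 had 5, 2 and 11 counts in CAUDA-R and 3 in CAUDA-NR 3, and 0 in the caput. pir-tup-59385 had 6, 4 and 13 counts in CAPUT-R, 0, 9 and 2 in CAUDA-R, and 4 in NR in all. pir-tup-5586 had 4, 10 and 1 counts in CAPUT-R and 0 and 3 in CAPUT-NR, next in number to pir-tup-5585, which had 0 in CAPUT-R.

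Caput and cauda were compared directly with season as a covariate, cauda minus caput. Of the 1675 entries tested 0 were called in either direction (0% each way), and 55 of the 102 were among those tested. edgeR gave 10 of the 55 an unadjusted p under 0.05, 9 of them higher and 1 lower in the cauda, and the lowest adjusted p was 0.271 (pir-tup-5625). DESeq2 also called 0 of the 55. Their median log2 difference was 1.07, against 0.49 for all tested entries, and 37 of the 55 were positive. Segments were therefore not distinguishable entry by entry at this depth, which does not show that they are alike.

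within NR alone the segments split the entries. The CAUDA-NR mean was the higher for 63 entries, the CAPUT-NR mean for 38, and 1 was equal. Every CAUDA-NR library lay above both CAPUT-NR libraries for 14 entries, where 1.45% of the 4129 entries did so, and the reverse held for another 14, where 4.24% did. A level of 0 in CAPUT-NR is weak evidence, since 3 counts over that group already correspond to 108 CPM. In R the CAUDA mean was higher for 23 and the CAPUT mean for 26, with 53 at 0 in both.

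Whether the season changed the caput entries by another amount than the cauda ones was tested with an interaction term (caput change less cauda change). Of the 55 entries tested 0 were called (0% of all entries were called higher), 1 had an unadjusted p under 0.05 by edgeR, and the lowest adjusted p was 0.920. DESeq2 called 0 of them as well. Their median log2 difference was 2.06, against 2.12 for all tested entries, but for many of the 55 the difference could not be estimated. Those entries had no counts in either R group or none in the caput. Their standard errors were very large, such as 4601 for pir-tup-5690 and 15868 for pir-tup-5625. They could not have been called, and the median takes in their values. For them a larger seasonal change in the cauda than in the caput could not be tested. For the other entries it was not shown, though the number called differed between the segments.

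Markers of cell types are given here beside the seasonal contrast. Of the germ cell and ciliated cell list 4 of the 5 names matched, giving 6 miRNAs, whose sum was 324 to 674 counts per 1000000 miRNA counts in the NR cauda and 579 to 1254 in the R cauda. miR-449a-5p, a miRNA of spermatocytes and ciliated cells, stood at 0, 0.704 and 151 in CAUDA-NR 1 to 3 and at 305, 105 and 216 in CAUDA-R. For this miRNA, and for miR-34c-3p and miR-34c-5p, CAUDA-NR 3 lay within the range of CAUDA-R. For miR-34b-3p (69.5 against 85.5 to 152) and miR-34b-5p (36.9 against 41.3 to 105) it lay below every CAUDA-R library. CAUDA-NR 3 was the NR library with the lowest share of epididymis-only entries. miR-449b was at 0 in all CAUDA-NR and all measured testis libraries and at 0.104, 0 and 0 in CAUDA-R. miR-449c is not among the names matched. In the caput this list summed to 331 and 560 in NR and to 387 to 779 in R. There miR-449a-5p stood at 26.7 and 24.4 in the measured NR libraries and at 15.3, 22.2 and 39.9 in R.

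The leukocyte list matched 5 of 5 names, 8 miRNAs, and summed to 3891 to 8924 in the NR cauda and 2097 to 5377 in CAUDA-R. miR-142a-3p, a miRNA of blood cells, had 5743, 7759 and 3122 in CAUDA-NR and 4878, 1404 and 2076 in CAUDA-R. It was highest in the same libraries, CAUDA-NR 1 and 2, that held most of the epididymis-only counts, and the seasons overlapped. Among the cauda libraries miR-142a-5p and miR-146a-5p were also highest in CAUDA-NR 1 and 2. The rest of the list was not. miR-155-5p was highest in CAUDA-R 2, and miR-150-5p and miR-223-3p were lower in CAUDA-NR 2 than in CAUDA-NR 3. In the caput the leukocyte sum was 2981 and 3133 in NR and 1135 to 2950 in R. The muscle list (4 of 4 names, 7 miRNAs) ranged from 4314 to 8094 in the NR cauda and from 3235 to 8158 in the R cauda, and the erythrocyte list (4 of 4 names, 7 miRNAs) to 96.3 to 289 and 164 to 303. The part of any of these cell types in the levels of the epididymis-only entries was not tested.

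The entries were not spread evenly over the catalogue. What the numbers in the names of entries stand for is not given in the sources used here, and sequences and genome positions of the entries were not analysed here. Of the 102, 81 (79.4%) carried a number up to 11000, as did 18.5% of all entries. Linking entries whose numbers lay at most 10 apart gave 18 runs of 2 or more, holding 62 entries, and left 40 alone. Of the runs 7 held 4 or more entries, 36 in all.

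The largest run, numbers 9533 to 9545 with 7 entries, had 85, 163 and 6 counts in CAUDA-NR 1 to 3, 0 and 0 in CAPUT-NR, and 2 in all R libraries together. The run from 5678 to 5691, with 5 entries among them pir-tup-5678 and pir-tup-5690, had 501, 282 and 19 counts in CAUDA-NR and 19 and 5 in CAPUT-NR. That from 5622 to 5629, also of 5 entries, had 306, 118 and 9 in CAUDA-NR. In each of these, CAUDA-NR 1 and 2 were far above CAUDA-NR 3. Runs did not all favour the same library: numbers 27570 to 27577 had 17, 184 and 5 counts in CAUDA-NR 1 to 3, and 27548 to 27550 had 98, 7 and 28. The run 5582 to 5586 was seen in both seasons, with 25, 30 and 17 in CAUDA-NR, 9 and 13 in CAPUT-NR, 6, 0 and 9 in CAUDA-R and 4, 10 and 1 in CAPUT-R.

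Many of these runs lay beside the entries that dominate the NR epididymis. There were 27 dominant entries, defined after the data were seen as those with at least 1% of the piRNA counts of any NR epididymal library, and none of them was an epididymis-only entry. Each had at least 3 testis counts; pir-tup-9537, for example, had 471 testis counts and pir-tup-27559 had 1806. Of the 102 epididymis-only entries, 29 (28.4%) were within 10 numbers of a dominant entry and 44 (43.1%) within 50, as were 0.572% and 2.47% of all entries. Of the dominant entries 19 of 27 had an epididymis-only entry within 50 numbers.

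**Figure D4:**
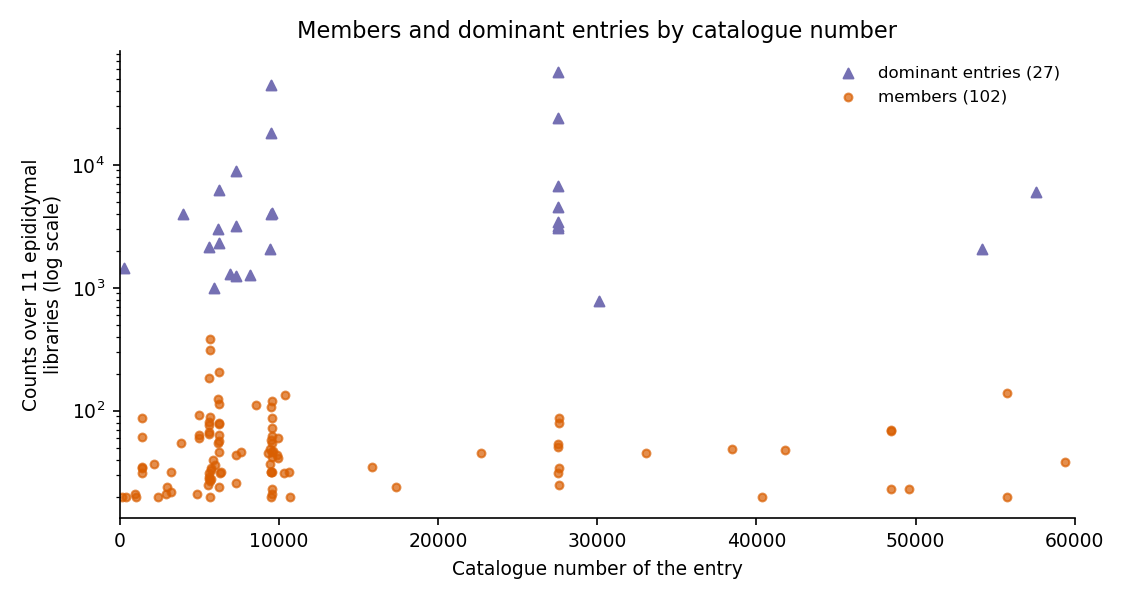
Counts over the 11 epididymal libraries (log axis) against the catalogue number, for the 102 epididymis-only entries (circles) and the 27 dominant entries (triangles). Circles lie at 20 to 380 counts, and 81 of the 102 have numbers up to 11000.

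The epididymis-only entries kept pace with the dominant ones in every epididymal library. The dominant entries took 78.2%, 78.5% and 29.3% of the piRNA counts in CAUDA-NR 1 to 3 and 55.1% and 71.4% in CAPUT-NR. They took 2.59%, 5.79% and 2.59% in CAUDA-R and 4.64%, 23.2% and 0.809% in CAPUT-R. Per 100 counts of dominant entries there were 3.01, 2.51 and 2.04 counts of epididymis-only entries in CAUDA-NR, 2.11 and 2.50 in CAPUT-NR, 2.72, 2.65 and 4.46 in CAUDA-R and 1.93, 2.39 and 2.78 in CAPUT-R. So while the share of the 102 varied from 0.0225% to 2.35%, its ratio to the dominant entries stayed within 1.93 to 4.46 per 100. CAUDA-NR 3 and CAPUT-R 2, which stood apart from their groups in the share, did not stand apart in this ratio. The points share their library totals, and the dominant entries were chosen on 5 of the 11 libraries, so this is a description with no test.

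**Figure D5:**
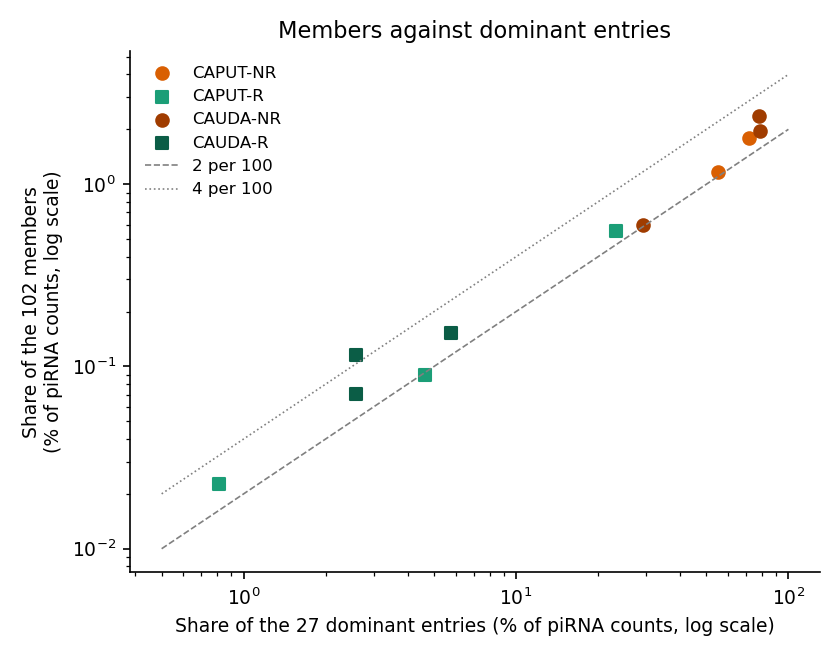
Share of piRNA counts taken by the 102 epididymis-only entries against the share taken by the 27 dominant entries, both in percent on log axes, 1 point per epididymal library; lines mark 2 and 4 per 100. All 11 libraries lie between 1.93 and 4.46 counts per 100 dominant counts, CAUDA-R 3 highest.

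In the testis the dominant entries had 3576 and 5485 counts in TESTIS-NR 1 and 2 (1.38% and 3.69%) and 971 to 1803 counts in TESTIS-R (0.0214% to 0.0280%). The epididymis-only entries are at 0 there by the rule, so their ratio in the testis carries no information.

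Entries next to them in number, which the rule did not choose, were examined in the same way. There were 262 other entries within 2 numbers of an epididymis-only entry, with a median of 25 testis counts against 45 for all entries. For 108 of the 262 (41.2%) most counts were epididymal, as for 0.903% of all entries. Of the 257 that were not dominant entries, the NR libraries held 88.9% of the epididymal counts, against 94.9% for the 102 and 43.1% for all entries. Among the 105 of these with at least 20 epididymal counts, every CAUDA-NR library was above every CAUDA-R library for 68 (64.8%), where the 102 had 55. The seasonal pattern was thus also seen in neighbours in number that have testis counts.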

How the data were processed

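Small RNA libraries were sequenced as single reads of 50 nt. The authors deposited counts per piRNA entry and per miRNA, 1 column per sample, taken as raw from the values (whole numbers with unequal totals), apart from the averaged columns, which are rounded means. Per the submitters' processing notes, featureCounts and bedtools were used. The aligner, the build and all versions were not given in the sources used here. Counting without molecular identifiers and of short RNAs that may match several loci could spread reads over near-identical entries, so close entries are uncertain one by one.

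The epididymis-only entries, the miRNA marker lists and the naming rule were chosen with earlier results of these data known. Named entries were the 12 of highest mean share, the 3 highest in each group, all called ones (up to 8 a direction) and those at the threshold. Fits used edgeR 4.0.16 under R 4.3.3: low counts were removed with filterByExpr at its defaults, libraries were scaled with TMM, and the quasi-likelihood test ran over all entries of the table, and an adjusted p under 0.05 was called. DESeq2 1.42.0 was an alternative. The scripts were tested on simulated data. Levels are counts per 1000000 piRNA counts of the library. Wilson intervals (95%) and floors of 3 counts over a group cover counting error only. The averaged columns were left out; in the miRNA table these were TESTIS-NR 2 and CAPUT-NR 2. The gene and piRNA cluster tables were not used.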

Additional observations from a re-analysis of the deposited data

How the results depend on the processing

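The number of epididymis-only entries called between seasons in the cauda, 4 of 5 tested, depended on the settings. It was 0 with scaling by library total, 2 with DESeq2 size factors and 2 with scaling to miRNA totals. Without the filter on low counts it was 0, and 0 of all 25130 entries were called. It was 57 with all 16 measured libraries in 1 fit, and 2 with a member threshold of 100 counts. Leaving out each library gave 0 to 40. DESeq2 called 5, and of all entries it called 55 higher and 94 lower, where edgeR called 0 and 76; in the caput it called 68 higher and 39 lower, where edgeR called 0 and 7. In the caput, where 0 were tested, the joint fit called 13 and leaving out each library gave 0 to 4 (1 without CAPUT-NR 1, 4 without CAPUT-R 2). Between segments and for the difference of season changes, 0 were called under each of 23 and 21 alternatives. In the main fit that difference could not be estimated for many of the entries, so its 0 does not show equal changes. With the replicate number as a block the cauda gave 1 call; deviations of same-numbered libraries correlated at -0.152 to 0.139, and not above 0.1 for every pair of any comparison, so the numbers were not taken as pairs. The block left the other 3 counts of epididymis-only calls at 0; over all entries it took the calls from 76 to 42 in the cauda and from 7 to 0 in the caput. Restricted to the 11 entries of 100 counts or more, the mean share was 0.176% in CAPUT-NR, 0.00729% in CAPUT-R, 0.576% in CAUDA-NR and 0.00272% in CAUDA-R. Leaving out each library moved the mean share to 1.17% to 1.79% in CAPUT-NR, 0.0561% to 0.322% in CAPUT-R, 1.28% to 2.16% in CAUDA-NR, and for CAUDA-R 0.0929% to 0.134%. Scaled to miRNA totals, the seasonal ratio in the cauda was 32.0 in place of 14.5 (16.8 to 43.3 on leaving out each library). Depth limited the tests: 1 count was worth up to 107 CPM, and 5 of 102 entries could be tested between seasons in the cauda. Leaving CAUDA-NR 3 out of the shares and of the counts without overlap was chosen after the data were seen.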
